A study of Sus scrofa with 6 samples.

Results

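The genes described here belong to the NF-κB system, a family of transcription factor subunits together with the proteins that hold it back and the cytokine TNF. The members were chosen by name: 5 subunits (NFKB1, NFKB2, REL, RELA and RELB), 3 inhibitors (NFKBIA, NFKBIE and NFKBIZ), the feedback gene TNFAIP3, and TNF. Of these 10 genes, 9 had a row in the table of 14579 mRNAs. RELB was matched to no row and was not analysed here. The Ensembl identifiers were ENSSSCG00000030957 for NFKB1, ENSSSCG00000010580 for NFKB2, ENSSSCG00000008388 for REL, ENSSSCG00000012981 for RELA, ENSSSCG00000001952 for NFKBIA, ENSSSCG00000001703 for NFKBIE, ENSSSCG00000011951 for NFKBIZ, ENSSSCG00000004154 for TNFAIP3 and ENSSSCG00000001404 for TNF. The name of the TNF row came only from the study's list of differentially expressed mRNAs in these samples, so its row was matched because of that call. Lung tissue was taken from 6 female piglets, all hybrids with Tibetan pig fathers and Meishan mothers. Of these, 3 were fetal, from the final day of gestation, and 3 were neonatal at an age of 2 days. No sow was mother to piglets of both groups. Birth, age, litter and the way of delivery differed together between the groups and cannot be told apart. Values before birth are those of the fetal and values after birth those of the neonatal piglets, in the order of the replicate numbers. RNA was depleted of ribosomal RNA and sequenced from 1 strand-specific library per piglet.

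NF-κB subunits act as dimers. In resting cells the dimers are kept in the cytoplasm by IκB proteins, and signals from TNF receptors, Toll-like receptors or the IL-1 receptor lead to phosphorylation and loss of the IκB, after which the dimer enters the nucleus. Many of its target genes encode its own inhibitors, among them NFKBIA, NFKBIE and TNFAIP3, so that transcripts of the system rise and decline with its activity in many cell types. In lung, epithelial cells, endothelial cells and macrophages all use this pathway in the response to microbes. Much of its control acts on protein, which RNA levels do not show.

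Levels are given as FPKM (fragments scaled to transcript length and to the number of mapped reads). Comparison of levels between genes holds only as far as the gene models have the right length, which could not be checked. A log2(FC) is the neonatal minus the fetal mean on the log2(FPKM + 1) scale. On this scale the difference of genes with low FPKM is understated. Differences were fitted with limma over all mRNAs, with p-values adjusted by the Benjamini-Hochberg method, and a gene was called at an adjusted p up to 0.05. The tables hold no read counts, so the spread between the 3 piglets of a group is the error used. The median FPKM of all mRNAs in a sample lay between 4.99 and 6.11, and between 3.02% and 5.68% of the mRNAs were listed at 0. The summed FPKM lay between 339491 and 471220 in the fetal samples and between 491548 and 777982 in the neonatal samples. Over all mRNAs, the median log2(FC) stood at 0.13. After scaling by median-of-ratios size factors it was -0.0090, so the smaller differences below are read against a shift of this size. Lung identity was visible in every sample, with the summed FPKM of 8 lung epithelial markers between 5258 and 6167 in the fetal group and between 6968 and 12499 in the neonatal group.

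None of the 9 members passed the threshold (limma, Benjamini-Hochberg adjustment over all mRNAs), where 6.87% of all mRNAs did (5.41% higher and 1.45% lower in the neonatal group). At an unadjusted p under 0.05 there were 4 members, NFKB1, NFKBIE, TNFAIP3 and TNF, and 24.2% of all mRNAs. In these 4 genes all neonatal piglets exceeded all fetal piglets, as was the case for 20.9% of all mRNAs. TNF had a row only because the study had called it in these samples. The counts of members set against all mRNAs are in part fixed by that choice. In REL every neonatal value lay below every fetal value, as in 9.64% of all mRNAs. The values of the remaining 4 members, NFKB2, RELA, NFKBIA and NFKBIZ, overlapped between the groups. The median log2(FC) of the 9 members was 0.28, and 7 of them lay above the median of all mRNAs. For a single gene, the smallest two-sided p of an exact permutation test of 3 against 3 is 0.1, and the 5 members without overlap stood at this limit.

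**Figure D1:**
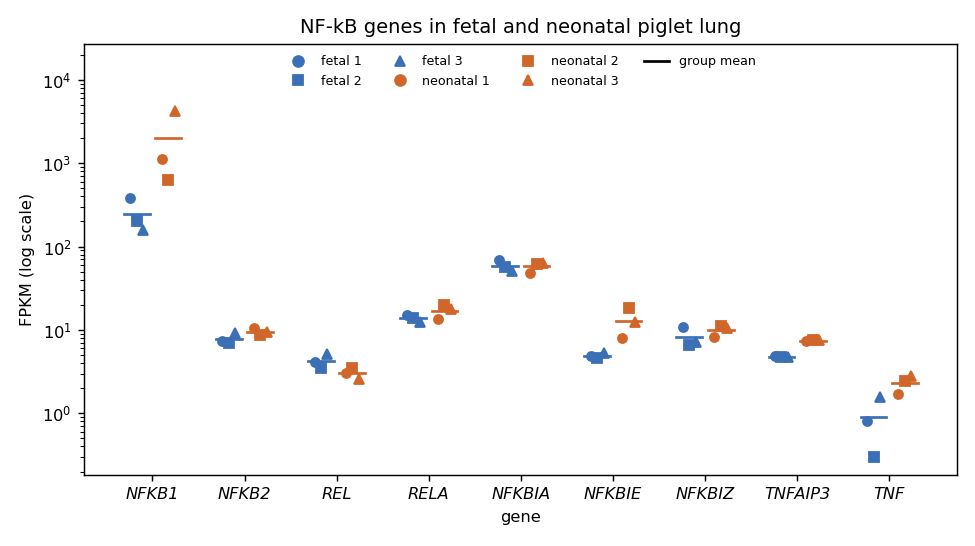
FPKM (log axis) of the 9 measured members in each of the 6 samples, with 1 point per piglet and a horizontal line at the group mean. NFKB1 sits far above the other members in every sample. The neonatal points lie above the fetal points in NFKB1, NFKBIE, TNFAIP3 and TNF. In REL they lie below, by only 0.00283 FPKM at the closest points.

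RELA and REL encode subunits that carry a transactivation domain and so switch target genes on. RELA was measured at 15.2, 13.8 and 12.6 FPKM before birth and at 13.3, 19.8 and 17.8 FPKM after birth. Neonatal1 lay within the fetal range, and Neonatal2 and Neonatal3 lay above it. The log2(FC) of 0.26 (95% confidence interval -0.20 to 0.73, adjusted p = 0.454 in limma) did not pass the threshold. After median-of-ratios scaling it was 0.097. REL was lower than RELA in every sample, at 4.11, 3.46 and 5.13 FPKM in the fetal group and 3.05, 3.46 and 2.56 FPKM in the neonatal group. The groups were separated by only 0.00283 FPKM, between Fetal2 and Neonatal2. Its log2(FC) was -0.37 (95% confidence interval -0.85 to 0.11, adjusted p = 0.310 in limma), and it stayed negative under all 13 alternatives, between -0.51 and -0.25.

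The balance of RELA over REL, as a ratio of FPKM within a sample, did not overlap between the groups. It was 3.70, 3.98 and 2.45 in the fetal samples and 4.38, 5.73 and 6.96 in the neonatal samples. This ratio does not depend on scaling between libraries. Of REL, RELA and NFKB2 FPKM added together, REL accounted for 16.2% ± 2.46 (SD, n = 3) before birth, against 10.24% ± 1.47 (SD, n = 3) after it. The sum itself was similar, at 26.0 ± 1.48 and 29.6 ± 2.53 FPKM (SD, n = 3 each), and its groups overlapped. These ratios were chosen after the values had been seen and were not tested.

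NFKB2 encodes p100, a precursor that also works as an inhibitor and is cut to the subunit p52 in the alternative pathway. It was measured at 7.33, 6.98 and 9.28 FPKM before birth and 10.5, 8.65 and 9.53 FPKM after birth. The groups overlapped, since Fetal3 lay above Neonatal2. The log2(FC) was 0.26 (95% confidence interval -0.17 to 0.69, adjusted p = 0.427 in limma), and 0.10 after median-of-ratios scaling.

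NFKB1 encodes p105, the precursor of the subunit p50, and its row differed from the other subunits in level and in spread. It was measured at 384.4, 204.0 and 156.2 FPKM before birth and at 1136, 628.2 and 4174 FPKM after birth. All neonatal values lay above all fetal values, but Neonatal3 was 6.64 times as high as Neonatal2. The log2(FC) of 2.64 (standard error 0.70, 95% confidence interval 0.99 to 4.28) was the largest of the members, and its adjusted p of 0.0711 (limma) missed the threshold. Without Neonatal3 the log2(FC) was 1.87, and the adjusted p stayed between 0.0578 and 0.237 over the 13 alternatives.

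The level of the NFKB1 row was unlike that of its relatives. Across samples it ranked between 26th and 325th of all mRNAs, while RELA ranked between 2762nd and 3679th and NFKB2 between 4478th and 6006th. In FPKM, NFKB1 was 12.4 to 25.3 times as high as RELA in the fetal samples and 85.1, 31.7 and 234.0 times as high in Neonatal1, Neonatal2 and Neonatal3. Its SD of log2(FPKM + 1) was 0.66 in the fetal and 1.40 in the neonatal group, against medians of 0.39 and 0.52 over the 128 mRNAs with a mean FPKM within 2-fold of its own. FPKM divides by the length of the gene model, and that length is not in the table. The identifier, ENSSSCG00000030957, was paired with the symbol by a reference table and not by the deposited file. The part of both in this level was not tested, so the NFKB1 values are those of that identifier.

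**Figure D2:**
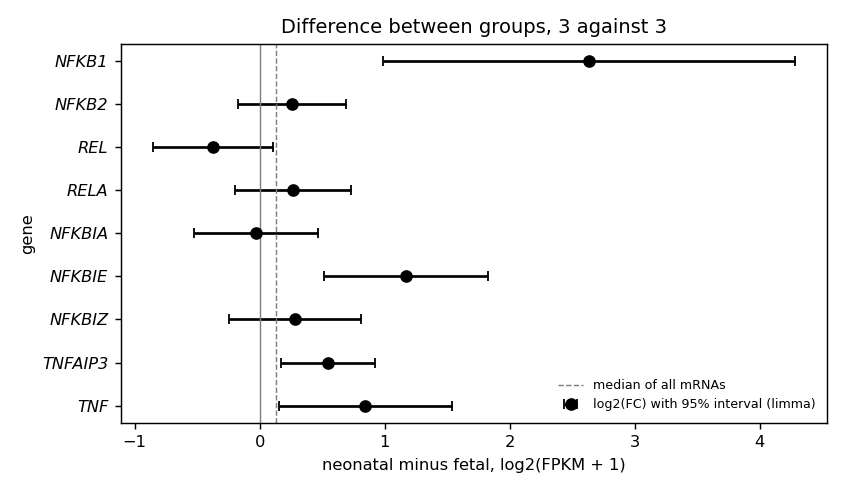
Difference between the neonatal and the fetal group on the log2(FPKM + 1) scale for each measured member, with its 95% confidence interval from limma (3 samples against 3). The dashed line is the median of all mRNAs at 0.13. The intervals of NFKB1, NFKBIE, TNFAIP3 and TNF lie above 0 before any adjustment for the number of mRNAs, and none of the 9 passed after it.

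NFKBIA encodes IκBα, the inhibitor that binds RELA-containing dimers and is rebuilt quickly after a signal. It was the most abundant inhibitor in every sample, at 69.6, 57.5 and 50.6 FPKM in the fetal group and 47.6, 62.5 and 63.9 FPKM in the neonatal group. The groups covered nearly the same range, with the lowest value in Neonatal1 and the highest in Fetal1. Its log2(FC) of -0.03 had a 95% confidence interval from -0.53 to 0.47 (adjusted p = 0.943 in limma), and differences in either direction within it cannot be told apart from none. The sign itself turned when Fetal1 or Neonatal1 was left out, to 0.09 and 0.10. After median-of-ratios scaling the log2(FC) was -0.21 and after quantile normalization -0.39 (adjusted p = 0.486 and 0.181 in limma).

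NFKBIE encodes IκBε, a slower relative of IκBα that prefers dimers with RELA or REL. It came closest to the threshold of all members. The fetal samples lay close together at 4.81, 4.60 and 5.31 FPKM, and the neonatal samples were at 7.996, 18.2 and 12.5 FPKM. Every neonatal value was above every fetal value, and the neonatal samples differed among themselves by 2.27-fold. The group means were 4.91 ± 0.367 and 12.9 ± 5.09 FPKM (SD, n = 3 each), a 2.63-fold difference, and limma gave 1.17 as the log2(FC) (standard error 0.28, 95% confidence interval 0.51 to 1.83, adjusted p = 0.0523). The call depended on the settings: the adjusted p was 0.0418 when mRNAs with low FPKM were left out and 0.0296 without Neonatal1, and it rose to at most 0.195 without Fetal2.

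The make-up of the IκB transcripts differed between the samples of the groups. Of the summed FPKM of NFKBIA, NFKBIB and NFKBIE, the share of NFKBIE was 5.45%, 6.24% and 7.40% in the fetal samples and 11.6%, 16.95% and 12.6% in the neonatal samples. The share of NFKBIA was 75.9% ± 4.65 (SD, n = 3) and 63.8% ± 5.23 (SD, n = 3), and its groups did not overlap either. These shares were not planned in advance and were not tested. They repeat in part the difference of NFKBIE itself, since the mean of NFKBIA was 59.3 FPKM before and 58.0 FPKM after birth. NFKBIB, which encodes IκBβ and was not among the members, had 13.7 ± 2.16 and 21.0 ± 6.62 FPKM (SD, n = 3 each; adjusted p = 0.263 in limma). For each sample the sum of NFKBIA and NFKBIE was also set against the sum of REL and RELA. This ratio was 3.86, 3.598 and 3.16 in the fetal samples and 3.39, 3.46 and 3.74 in the neonatal samples, so the groups overlapped and their means were 3.54 and 3.53. NFKBIA alone over RELA alone gave 4.58, 4.17 and 4.03 against 3.56, 3.15 and 3.58, without overlap.

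**Figure D3:**
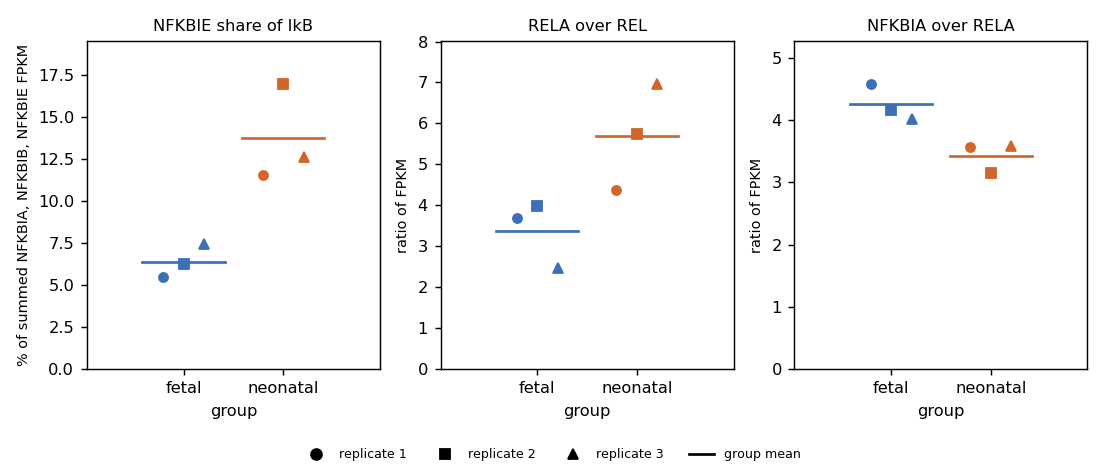
FPKM ratios within each sample, by group, with 1 point per piglet and a line at the group mean; all axes start at 0. The NFKBIE share among the IκB transcripts (left, in percent) and RELA over REL (middle) are higher in all 3 neonatal samples. NFKBIA over RELA (right) is lower in all 3. The left and middle ratios were chosen after the values had been seen. The ratio of NFKBIA and NFKBIE over REL and RELA, not shown, overlapped between the groups (means 3.54 and 3.53).

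NFKBIZ encodes IκBζ, an atypical IκB that works in the nucleus and helps to switch on a secondary set of targets. It was measured at 10.7, 6.57 and 7.18 FPKM before birth and at 8.30, 11.1 and 10.6 FPKM after birth. Fetal1 lay among the neonatal values, so the groups overlapped. The log2(FC) was 0.28 (95% confidence interval -0.25 to 0.81, adjusted p = 0.485 in limma), and 0.12 after median-of-ratios scaling.

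TNFAIP3 encodes A20, an enzyme that edits ubiquitin chains on signalling proteins and so ends the signal. It showed the least spread of all members. The fetal values were 4.92, 4.70 and 4.73 FPKM and the neonatal values 7.32, 7.4998 and 7.503 FPKM. The group means of 4.78 ± 0.118 and 7.44 ± 0.104 FPKM (SD, n = 3 each) differed by 1.56-fold, more than the spread between the piglets of a group. The log2(FC) was 0.55 (standard error 0.16, 95% confidence interval 0.17 to 0.92). In limma, which moderates the variance of each gene towards that of other mRNAs, its adjusted p was 0.0921. The SD of log2(FPKM + 1) was 0.029 in the fetal and 0.018 in the neonatal group, against medians of 0.23 and 0.28 over the 5686 mRNAs with a mean FPKM within 2-fold of its own. Leaving out any sample moved the log2(FC) only between 0.54 and 0.56, and median-of-ratios scaling lowered it to 0.39.

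TNF, the cytokine that both starts NF-κB signalling and is made in response to it, was the lowest member in 5 of the 6 samples, the exception being Neonatal3, where REL was lower. It was listed at 0.801, 0.295 and 1.59 FPKM in the fetal group and 1.70, 2.43 and 2.77 FPKM in the neonatal group. The groups did not overlap, but Fetal3 lay only 0.110 FPKM below Neonatal1. The means of 0.894 ± 0.650 and 2.30 ± 0.547 FPKM (SD, n = 3 each) gave a log2(FC) of 0.84 (95% confidence interval 0.15 to 1.53, adjusted p = 0.139 in limma). At this level the pseudocount matters, and with 0.1 in place of 1 the log2(FC) was 1.48 (adjusted p = 0.164 in limma). The paper, which tested with Cuffdiff, reported TNF as significantly higher in the neonatal group. It also states that the differentially expressed genes it named were checked by qRT-PCR.

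In order of mean FPKM, the fetal members ran from NFKB1 over NFKBIA, RELA, NFKBIZ, NFKB2, NFKBIE, TNFAIP3 and REL to TNF. NFKBIZ and NFKB2 could not be told apart by their ranges, and the ranges of NFKBIE and TNFAIP3 and of TNFAIP3 and REL overlapped too. In the neonatal group NFKBIE stood directly below RELA, and the ranges of neighbours among RELA, NFKBIE, NFKBIZ and NFKB2 overlapped. REL and TNF were the lowest and overlapped as well. By group mean, NFKB1 was the highest and TNF the lowest in both groups.

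Over the 6 samples, the mRNAs most like the mean standardized profile of the 9 members were UCHL3, USF1 and STRN4, with Pearson r of 0.998, 0.997 and 0.995. They were the highest of 8702 mRNAs with a symbol and a mean of at least 1 FPKM. The samples share their group and library with both sides of this comparison, and the values are a description only. The profile was lowest in Fetal2, at -0.86, and highest in Neonatal2 and Neonatal3, at 0.69 and 0.68, while Neonatal1 stood at -0.01, near Fetal1 at -0.12.

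The rest of the pathway was read from lists of 82 further genes, of which 56 had a row. CD40, BCL2A1, BCL2L1, CXCL10, IL1B and SDC4 were named only by the study's list of differentially expressed mRNAs. They had a row because the study had called them, so the counts and medians of these lists are in part fixed by that choice. Past the threshold were 4 of the 56, all higher in the neonatal group, where 5.41% of all mRNAs were higher and past it. All 4 were targets. The median log2(FC) of the 56 genes was 0.50, against 0.13 over all mRNAs, and 25 of them did not overlap between groups, as did 30.5% of all mRNAs.

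**Figure D4:**
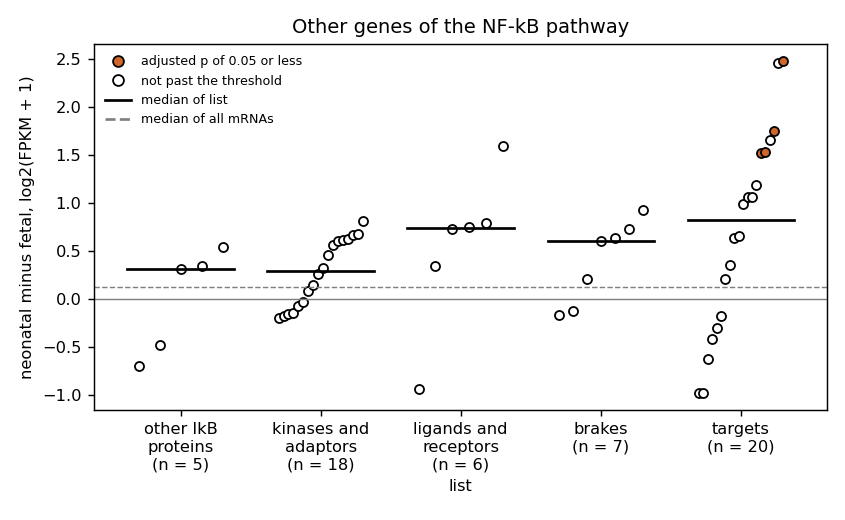
Difference between the groups (neonatal minus fetal, log2(FPKM + 1)) for each of the 56 other pathway genes, in 5 lists. Filled points passed the threshold and lie only among the targets; black bars are list medians, and the dashed line is the median of all mRNAs at 0.13.

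Among the kinases and adaptors that carry the signal to the IκB proteins, 18 genes had a row, none passed the threshold (5 at an unadjusted p under 0.05 in limma, as 24.2% of all mRNAs), and the median log2(FC) was 0.29. The kinase subunits themselves showed no difference past the threshold. CHUK (IKKα) had 6.66 ± 0.683 and 7.54 ± 1.34 FPKM, and IKBKB (IKKβ) had 6.72 ± 1.35 and 10.4 ± 2.097 FPKM (SD, n = 3 each), with adjusted p values of 0.667 and 0.178 in limma. TRAF3, which restrains the alternative pathway, came nearest to the threshold, at 4.23, 4.50 and 4.75 FPKM before birth and 7.83, 7.45 and 8.05 FPKM after birth (log2(FC) 0.68, adjusted p = 0.0531 in limma). IKBKE, an IKK-related kinase, had the largest log2(FC) of this list, 0.81, with values that overlapped between groups (adjusted p = 0.204 in limma).

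Of the 12 ligands and receptors, 6 had a row and none passed the threshold. At an unadjusted p under 0.05 in limma there were 5, of which 4 higher and 1 lower, and 24.2% of all mRNAs. CD40, among these 5, had a row only because the study had called it, so the count is in part fixed by that choice. CD40, a receptor of B cells and antigen-presenting cells that feeds both pathways, was measured at 5.09, 3.48 and 6.64 FPKM before birth and at 8.61, 17.3 and 31.9 FPKM after birth. The groups did not overlap, and the log2(FC) was 1.60 (adjusted p = 0.0767 in limma). TNFRSF11A, the receptor RANK, was the only gene of this list with a lower neonatal mean, at 9.37 ± 4.16 and 4.39 ± 2.06 FPKM (SD, n = 3 each; adjusted p = 0.164 in limma). TNFRSF1A, the main receptor of TNF, was at 18.7 ± 1.39 and 32.5 ± 6.46 FPKM (SD, n = 3 each; adjusted p = 0.0658 in limma) without overlap.

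Other brakes on the pathway were 7 genes with a row, none of them past the threshold, with a median log2(FC) of 0.61. At an unadjusted p under 0.05 in limma there were 3, all higher, and 24.2% of all mRNAs. TNIP1, a partner of A20, had 30.1, 20.3 and 22.1 FPKM before birth and 32.2, 58.5 and 52.1 FPKM after birth, without overlap (log2(FC) 0.92, adjusted p = 0.0927 in limma). TRAF1, an adaptor whose action as a brake was not tested, had 0.990 ± 0.230 and 2.33 ± 0.615 FPKM (SD, n = 3 each, adjusted p = 0.104 in limma). Of the 5 other IκB-related genes none passed, none had an unadjusted p under 0.05 in limma, and all overlapped between groups. NKIRAS1, which encodes a small GTPase-like protein that binds IκB, had the largest size of log2(FC) among them, -0.70 (adjusted p = 0.341 in limma).

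The targets were the list with calls. Of 20 with a row, 4 passed, all higher in the neonatal group, where 5.41% of all mRNAs were higher and past the threshold. The median log2(FC) of the 20 was 0.83. Another 7 targets had no row: SOD2, SELE, CXCL8, CCL20, IL6, PTGS2 and TNFAIP2. A target without a reference symbol could have a row only if the study had called it. CCL2, a chemokine that attracts monocytes, rose from 5.91, 2.32 and 0.996 FPKM before birth to 16.0, 16.6 and 25.9 FPKM after birth (log2(FC) 2.48, standard error 0.44, adjusted p = 0.0206 in limma). CXCL2, a chemokine for neutrophils, rose from 0.586, 0.206 and 0.0962 FPKM to 2.43, 3.99 and 3.66 FPKM (log2(FC) 1.75, standard error 0.25, adjusted p = 0.00960 in limma). It belongs to a family of similar genes that can share reads, and the study's own table names this identifier as another member of that family, so the gene is uncertain. IER3, an early response gene, had means of 3.96 ± 1.64 FPKM before and 12.9 ± 3.38 FPKM after birth (SD, n = 3 each), and rose by 1.52 on the log2 scale (adjusted p = 0.0336 in limma). IRF1, a transcription factor of the interferon response, had means of 13.6 ± 3.81 FPKM before and 43.2 ± 20.6 FPKM after birth (SD, n = 3 each), and rose by 1.54 on the log2 scale (adjusted p = 0.0488 in limma).

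These 4 calls depended on single samples and, for IER3 and IRF1, on settings with all 6 samples. Without the variance trend the adjusted p of IRF1 was 0.0546 in limma, and 3 targets passed. Under the replicate block IER3 and IRF1 had adjusted p values of 0.0780 and 0.0622 in limma, and 2 targets passed. With 1 sample left out, CXCL2 passed in 4 of 6 fits, and CCL2, IER3 and IRF1 in 1 of 6 each. The highest adjusted p was 0.0633 for CXCL2 and 0.110 for CCL2, both without Fetal2. For IER3 it was 0.126, without Neonatal3, and for IRF1 0.188, without Fetal2. All 4 kept their direction in all 13 alternatives.

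Other targets went different ways. CXCL10 had the second highest log2(FC) of the list, 2.46 (adjusted p = 0.179 in limma). It stood at 133.9 FPKM in Neonatal3, far above 7.53 and 8.83 FPKM in the other neonatal samples, which were themselves above the 2.49 to 4.38 FPKM of the fetal samples, so the groups did not overlap. CCL5 stood at 52.9 and 25.1 FPKM in Neonatal2 and Neonatal3, and at 4.69 FPKM in Neonatal1, within the fetal range of 4.15 to 6.17 FPKM. Without overlap between groups, 10 of the 20 targets were higher in the neonatal group (20.9% of all mRNAs) and 3 were lower (9.64% of all mRNAs). Among these, BCL2A1, CXCL10, IL1B and SDC4 had a row only because the study had called them in these samples. The comparison with all mRNAs is therefore in part fixed in advance. Beside the 4 called targets and CXCL10, the higher ones were BCL2A1, IL1B, MMP9, PLAU and EHD1, with log2(FC) values from 0.63 to 1.18, none past the threshold. The lower ones were VCAM1, SDC4 and BIRC3. VCAM1, an endothelial adhesion molecule, had 22.9 ± 2.22 and 11.6 ± 4.40 FPKM (SD, n = 3 each; adjusted p = 0.0809 in limma). BIRC3, which encodes cIAP2, had 14.6 ± 1.61 and 10.6 ± 0.596 FPKM (SD, n = 3 each; adjusted p = 0.181 in limma). SDC4, which encodes syndecan-4, had 47.8 ± 12.4 and 30.3 ± 5.51 FPKM (SD, n = 3 each; adjusted p = 0.171 in limma). BCL2A1, IL1B, MMP9, PLAU, EHD1, VCAM1, SDC4, BIRC3, CHUK, IKBKB and TNFRSF1A were named after their values were seen.

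**Figure D5:**
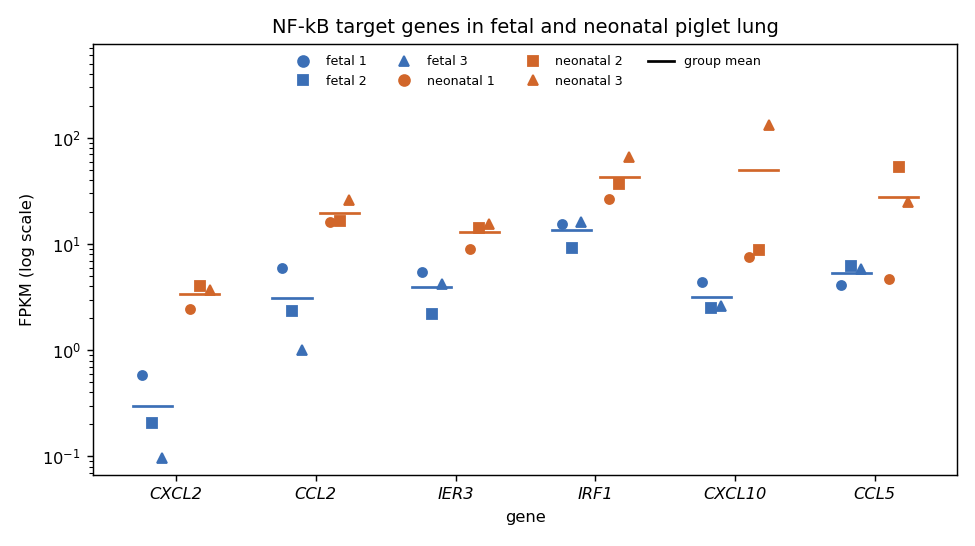
FPKM (log axis) of 6 NF-κB target genes in each sample, with 1 point per piglet and a line at the group mean. CXCL2, CCL2, IER3 and IRF1 passed the threshold and do not overlap between groups; in CXCL10, which does not overlap either, Neonatal3 lies far above the rest, and in CCL5 Neonatal1 lies within the fetal range.

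Marker genes of other cell types were read in the same samples, and 3 neutrophil markers were the only ones past the threshold among the 5 marker lists. Of the neutrophil markers, S100A8, S100A9 and S100A12 rose past the threshold, by 2.81, 3.15 and 3.72 on the log2 scale, and the summed FPKM of the 5 measured markers was 81.7 to 154.6 in the fetal group and 842 to 1311 in the neonatal group. S100A9 and S100A12 had a row only because the study had called them in these samples, so their calls and this sum rest in part on that choice. CXCR2, MPO and FCGR3A had no row. In the marker lists below, AIF1 and SFTPA1 also had a row only through the study's calls. S100A8 and its relatives are also made by monocytes, and ELANE, which marks immature neutrophils, was listed at 0 in all 3 neonatal samples. CSF3R, the receptor of a neutrophil growth factor, had a log2(FC) of 1.23 (adjusted p = 0.0846 in limma). Of 8 macrophage markers none passed the threshold (6 at an unadjusted p under 0.05 in limma), and all 8 had a higher neonatal mean. Over all mRNAs, 24.2% had an unadjusted p under 0.05 in limma, and 8729 of 14579 had a higher neonatal mean. The summed FPKM of the 8 macrophage markers was 300 to 705 in the fetal group and 555 to 1334 in the neonatal group, with overlap. AIF1 had the largest difference among them, with 29.1 ± 9.57 FPKM before and 92.7 ± 44.3 FPKM after birth (SD, n = 3 each; limma adjusted p = 0.0569), followed by CD14 with a log2(FC) of 1.28 (adjusted p = 0.120). CD68, named after its values were seen, came nearest to the threshold, with 8.14 ± 3.13 FPKM before and 20.2 ± 4.82 FPKM after birth (SD, n = 3 each; adjusted p = 0.0506 in limma), without overlap. The 7 lymphocyte markers summed to 7.01 to 7.97 and 2.80 to 12.3 FPKM, with none past the threshold (2 at an unadjusted p under 0.05 in limma, both lower), and MS4A1 was listed at 0 in 1 neonatal sample. CD79B and CD4 had the largest sizes of log2(FC) among them, -0.72 and 0.57 (adjusted p = 0.171 and 0.355 in limma). The 4 endothelial markers summed to 205.4 to 239.3 and 197.9 to 218.1 FPKM, with none past the threshold (1 at an unadjusted p under 0.05 in limma, lower), and TEK and KDR had log2(FC) values of -0.48 and -0.40 (adjusted p = 0.246 and 0.195 in limma). Of the lung epithelial markers none passed (3 at an unadjusted p under 0.05 in limma, of which 2 higher and 1 lower). The lower one, EPCAM, named after its values were seen, had 46.5 ± 1.94 FPKM before and 29.4 ± 8.64 FPKM after birth (SD, n = 3 each; adjusted p = 0.144 in limma), without overlap. The surfactant genes SFTPA1 and SFTPC had log2(FC) values of 0.97 and 0.80 (adjusted p = 0.151 and 0.429 in limma). In whole tissue, more cells of a type and more RNA per cell cannot be told apart, and the part of cell make-up in the values of the members was not tested.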

How the data were processed

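The authors deposited FPKM values of mRNAs, obtained with Cufflinks 2.2.1 after TopHat2 2.1.0 had aligned the cleaned reads to the Sscrofa10.2 genome. Each of the 14579 mRNAs exceeded 0.5 FPKM somewhere among the samples. The table held 6 columns, which were matched to samples by name, and 0 were left unmatched. Read depth is not in the table, and no counting error was attached to single values. The deposited lncRNA table was not used. No gene sequences were used here.

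Symbols came from an Ensembl reference table for 9478 mRNAs. For 362 more they came from the study's list of differentially expressed mRNAs in these same samples, of which a part was held. A gene without a reference symbol could thus have a row only if the study had called it. Counts and medians of lists with such genes are in part fixed by this when set against all mRNAs. Values were analysed as log2(FPKM + 1) with limma 3.58.1 under R 4.3.3, allowing the variance to follow the mean level, and Benjamini-Hochberg adjustment over all mRNAs, with no further filter, and the fit was tested on simulated data. Confidence intervals are 95% intervals of limma. Ratios, ranges and exact permutation tests came from Python 3.11.15, pandas 2.3.3, numpy 2.4.6 and scipy 1.17.1. Plots used matplotlib 3.10.9. The members and lists were chosen with earlier results of these data known.

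Genes were named by a rule: all members, then from each further list every gene past the threshold and the 2 largest differences among the others, and the 3 mRNAs most like the members. The alternatives were pseudocounts of 0.5 and 0.1, scaling by median-of-ratios size factors, quantile normalization, a minimum of more than 1 FPKM in 3 or more samples, a constant prior variance, a replicate block, and leaving out every sample once.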

Additional observations from a re-analysis of the deposited data

How the results depend on the processing

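With all 6 samples, 1001 mRNAs were past the threshold in limma, 789 of them higher. Under a replicate block there were 401, and with 1 sample left out between 196 (without Fetal2) and 944 (without Neonatal1). The share of calls with a higher neonatal mean was 78.8%, against 66.0% after median-of-ratios scaling and 57.9% after quantile normalization. Members past the threshold numbered 0, and 1 (NFKBIE) when FPKM above 1 in at least 3 samples was required, where fewer mRNAs were tested; with 1 sample left out the number lay between 0 and 1, the 1 being NFKBIE without Neonatal1. Of the other pathway genes, 4 were higher and past the threshold, 2 under the replicate block, and between 0 (without Fetal2 or Neonatal3) and 6 (without Neonatal1) with 1 sample left out. Lower pathway genes numbered 0, but 1 after median-of-ratios scaling and 2 after quantile normalization. The log2(FC) of NFKBIA, -0.03, turned to 0.09 without Fetal1 and 0.10 without Neonatal1. It lay between -0.14 and 0.10 with 1 sample left out. After median-of-ratios scaling it was -0.21 and after quantile normalization -0.39 (adjusted p = 0.486 and 0.181 in limma). The cause was not tested. The other 8 members kept their direction in all 13 alternatives. The difference of the log2 ratio of NFKBIA and NFKBIE over REL and RELA was 0.00070. It was -0.31 for NFKBIA alone over RELA alone, and -2.38 with NFKB1 and NFKB2 counted among the subunits; the log2(FC) of NFKB1 was 2.64. Without the variance trend IRF1 was not called (adjusted p = 0.0546). The replicate numbers do not pair the piglets, which came from different sows: same-numbered samples had correlations of their deviations between -0.041 and 0.00047, and the replicate block took IER3 and IRF1 off the called genes, with adjusted p values of 0.0780 and 0.0622. The 3 piglets of a group limit the precision, and adjusted p values just above 0.05 (NFKBIE, TRAF3 and CD68) do not show that the groups were alike.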
